A study of Mus musculus with 4 samples.

Results

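The genes described here are 50 interferon-induced genes of the mouse, found by symbol among the 55450 genes measured in single cells of the testis. They were listed because many of them differed between mice fed high-fat food (HFD) and those on the normal diet (ND) in these same libraries. For the 50 genes, ratios, errors and counts past the threshold in that contrast therefore restate the choice. They are given as a description beside the share of all genes, and no p-value is printed for them. Levels in different cell classes were compared within the ND libraries, which are also 1 side of the diet contrast. The study prepared 2 HFD libraries and 2 ND libraries from dissociated testis with the droplet 3′ chemistry of 10x Genomics, to compare the cell types of the testis between the diets. The labels give the diet as HFD or ND and no strain, genotype, age, length of feeding or number of mice per library, and the paired libraries of a diet may differ only technically.

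Interferons are secreted proteins that cells release on sensing viral or misplaced nucleic acid. They bind paired receptors on neighbouring cells, the JAK kinases at those receptors phosphorylate STAT proteins, and a complex that holds STAT2 and IRF9 binds the interferon-stimulated response element, while other STAT complexes bind the gamma-activated site. The genes switched on in this way include sensors of foreign RNA and DNA, enzymes and GTPases that block viral growth, and the machinery that loads peptides on MHC class I. In the testis, macrophages and the steroid-producing Leydig cells lie in the interstitium between the tubules, whereas germ cells develop inside the tubules among Sertoli cells, behind a barrier that Sertoli cells form.

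RefSeq promoter windows (GRCm38.p6, 250 bases before to 50 bases after the start of transcription) were given for 39 of the 50 genes. The response element was searched on both strands as GAAA, any 2 bases and GAAA again, and 21 of the 39 genes (53.8%) held it, against 3.99% of all 27025 genes with a window. The gamma-activated site, searched as TTCNNNGAA, which is its own reverse complement, was in 8 of the 39 genes (20.5%) and in 9.55% of all genes. A match describes letters only, and overlapping matches were counted separately. The 160 bases before the start follow for genes that carry the diet difference in the interstitial cells, and for Herc6, which held no match. Herc6 had nearly equal levels in both diets in the tubule, but was lower in HFD without overlap in 3 of 4 interstitial classes. A link between matches and the diet was not tested. Capitals mark the response element. The positions on GRCm38 are chr4:156200819-156200978 (- strand) for Isg15, chr19:34640729-34640888 (+ strand) for Ifit1, chr19:34583369-34583528 (+ strand) for Ifit3, chr12:26456453-26456612 (- strand) for Rsad2, chr11:58199396-58199555 (+ strand) for Igtp and chr6:57580832-57580991 (+ strand) for Herc6.
Isg15: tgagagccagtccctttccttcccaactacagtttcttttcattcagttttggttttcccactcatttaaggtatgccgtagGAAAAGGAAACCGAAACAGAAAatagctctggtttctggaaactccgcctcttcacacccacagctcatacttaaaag
Ifit1: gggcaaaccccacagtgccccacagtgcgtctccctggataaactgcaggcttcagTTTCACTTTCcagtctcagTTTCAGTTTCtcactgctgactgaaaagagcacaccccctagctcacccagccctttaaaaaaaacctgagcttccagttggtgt
Ifit3: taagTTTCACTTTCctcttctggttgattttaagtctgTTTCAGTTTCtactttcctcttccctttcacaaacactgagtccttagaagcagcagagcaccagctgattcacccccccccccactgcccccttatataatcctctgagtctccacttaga
Rsad2: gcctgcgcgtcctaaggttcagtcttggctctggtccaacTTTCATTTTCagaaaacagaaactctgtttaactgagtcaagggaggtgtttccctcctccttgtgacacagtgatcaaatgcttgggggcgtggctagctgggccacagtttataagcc
Igtp: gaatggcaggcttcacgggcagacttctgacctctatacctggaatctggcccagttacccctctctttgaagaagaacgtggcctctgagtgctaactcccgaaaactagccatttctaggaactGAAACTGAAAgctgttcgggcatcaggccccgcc
Herc6: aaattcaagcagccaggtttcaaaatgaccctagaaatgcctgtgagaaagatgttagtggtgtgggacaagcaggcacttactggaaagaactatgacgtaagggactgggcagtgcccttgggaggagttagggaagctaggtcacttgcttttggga

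In Isg15, which encodes a ubiquitin-like protein that is attached to other proteins, 3 overlapping matches ran together from 78 bases before the start. Ifit1 and Ifit3, neighbours on chromosome 19 that encode proteins binding viral RNA, each had 2 matches, which read TTTC, 2 bases and TTTC on the strand shown. Rsad2, the antiviral enzyme viperin, had 1 in that orientation, and Igtp, a GTPase that attacks the vacuoles of intracellular parasites, had 1 close to the start. Oasl2, Ifit2 and Irf7 held none in the window, and Eif2ak2 and Ddx58 held 1 each.

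The libraries held 13561 (HFD 1), 14368 (HFD 2), 15290 (ND 1) and 14618 (ND 2) barcodes, with 143748262 to 154221188 UMIs each. After filtering, 13155 to 14504 cells per library remained, with median depths of 5512.5 to 5937 UMIs, and any pair of libraries shared 42 to 65 barcodes. Cells were clustered without the 50 genes and named from marker genes, so each class is called X-like. Classes under 50 cells in any library were not tested, and those used were 4 interstitial classes (Leydig-like, macrophage-like, lymphocyte-like and fibroblast-like), Sertoli-like cells and 4 germ classes. Levels are counts per 1000000 UMIs of the class in that library (CPM). Since the chemistry tags the 3′ end once per molecule, CPM was not divided by gene length.

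Summed over the 50 genes, the level was higher in the interstitial than in the tubule classes. In macrophage-like cells it was 2271 and 2188 CPM in HFD and 6008 and 5777 CPM in ND. In lymphocyte-like cells it was 944 and 1160 CPM against 3559 and 2978 CPM. In Leydig-like cells it was 759 and 904 CPM against 1525 and 1494 CPM. Both HFD libraries lay below both ND libraries in each of these classes. Fibroblast-like cells, with 741 and 720 CPM in HFD and 1652 and 1424 CPM in ND, had the same order. In Sertoli-like cells the sum was 115 and 114 CPM in HFD and 122 and 137 CPM in ND, again lower in HFD. Macrophage markers (9 of 9) in these cells were lower in HFD as well, at 30.6 and 38.1 CPM against 73.2 and 62.1 CPM, as were lymphocyte markers (7 of 12) at 30.6 and 23.8 CPM against 33.9 and 31.4 CPM. In early-spermatocyte-like cells it was 64.1 and 70.4 CPM against 74.4 and 76.7 CPM, also without overlap. Leydig markers (7 of 7) had 18.7 and 18.8 CPM there against 28.5 and 26.1 CPM, and Sertoli markers (8 of 9) 70.8 and 83.3 CPM against 87.3 and 92.6 CPM, both lower in HFD. The part of these markers in the sums was not tested. In the other tested germ classes the sum overlapped, at 42.1 to 166 CPM. In HFD 1 pachytene-like cells, Dhx58, Herc6 and Eif2ak2 gave 4301, 2558 and 1110 of 9009 UMIs. Ifit1, Ifit2 and Ifit3 together had 2 and 4 UMIs there under HFD against 5 and 16 under ND. They had 3 and 4 against 14 and 15 in round-spermatid-like and 0 and 0 against 13 and 4 in elongating-spermatid-like cells. In CPM they were lower in HFD without overlap in each, as in early-spermatocyte-like cells. Antiviral effectors as a group were higher in pachytene-like cells. The sum in spermatogonia-like cells, which were not tested, was 198 and 217 CPM in HFD and 256 and 240 CPM in ND, above the other germ classes.

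**Figure D1:**
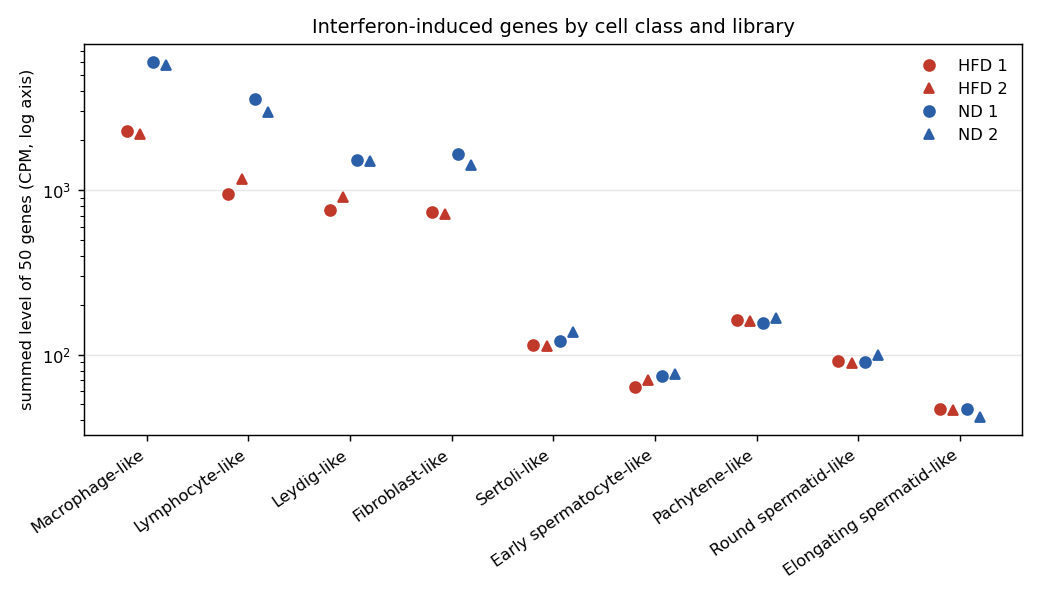
Summed level of the 50 genes (CPM, log axis) in each cell class, with 1 point per library (red HFD, blue ND, circle replicate 1, triangle replicate 2). In the 4 interstitial classes on the left the HFD points lie below the ND points, from 741 and 720 against 1652 and 1424 CPM in fibroblast-like cells to 2271 and 2188 against 6008 and 5777 CPM in macrophage-like cells.

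Over the sum of all kept cells, 49 of the 50 genes were tested by edgeR, and 39 were past the threshold as lower and 1 as higher in HFD, beside 19% of all tested genes lower and 15.5% higher. Of the 49 genes with at least 20 UMIs, 42 had both HFD libraries below both ND libraries (35.6% of all such genes). Since the genes were chosen on this contrast, nothing is read from that count. Ifit3 had 32 and 11 UMIs under HFD against 202 and 242 under ND, a log2 ratio of HFD over ND of -3.43 (SE 0.25). Ifit1 had 17 and 20 UMIs against 146 and 181 (-3.20, SE 0.21). Ifit2 had 7 and 12 UMIs against 59 and 67 (-2.78, SE 0.30). For these RNA binders the diets did not overlap. Oasl2, an oligoadenylate synthetase-like protein, had 23 and 30 UMIs against 160 and 162. Rsad2 had 17 and 16 UMIs against 99 and 96, and Rtp4, which helps membrane receptors reach the cell surface, had 35 and 10 against 117 and 130.

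Among the genes with UMIs in germ cells, differences in the whole testis varied. Dhx58, which encodes the RNA helicase LGP2, had 55.1 and 53.4 CPM in HFD and 49.5 and 51.6 CPM in ND. Herc6, the mouse ligase that attaches ISG15, had 5093 and 4744 UMIs against 4234 and 4843, and the RNA sensor gene Ddx58 (RIG-I) had 3.67 and 3.72 CPM against 3.71 and 4.01 CPM. Slfn5, a nuclear schlafen protein, was lower in HFD, at 2.09 and 1.90 CPM against 3.24 and 3.27 CPM (-0.70, SE 0.10), and Mx1, Cmpk2 and Stat2 had ratios of -0.55, -0.55 and -0.56. Eif2ak2, the RNA-activated kinase PKR, was the 1 gene past the threshold as higher in HFD, with 2182 and 2076 UMIs against 1678 and 1771. Bst2, the tetherin that holds budding virus at the cell surface and is abundant in the interstitium, differed more, with 3.79 and 3.75 CPM against 6.45 and 6.27 CPM.

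In such sums, fewer cells of a type and less RNA per cell cannot be told apart. The interstitial classes made up 4.09% and 3.57% of cells in HFD and 4.62% and 5.06% in ND. Without Dhx58, Herc6 and Eif2ak2, the genes had 9971 UMIs in the HFD libraries and 17098 in the ND libraries. Of these, 4106 (41.2%) and 10818 (63.3%) were in the interstitial classes, while germ cells, with spermatogonia-like cells counted in, held 4383 and 4779.

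Within the interstitial classes, 123 pairs of a gene and a class had at least 20 UMIs over the 4 libraries. Both HFD libraries were below both ND libraries in 110 of these pairs and above in 1, and the diets overlapped in 12. Over all genes, 19% of 32597 such pairs were below and 21.9% above. In Sertoli-like and germ classes there were 77 such pairs, of which 22 were below, 11 above and 44 overlapping, beside 22.3% below and 22.3% above among all 86022 pairs. Of the 40 genes with 20 UMIs in at least 2 interstitial classes, 30 were lower in HFD without overlap in every one of them, as were 2.33% of all 7801 such genes. These counts too describe genes chosen on the diet difference. They also include genes nearly absent from the HFD libraries, which reached 20 UMIs only through the ND libraries. For such genes the direction was fixed by that limit.

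**Figure D2:**
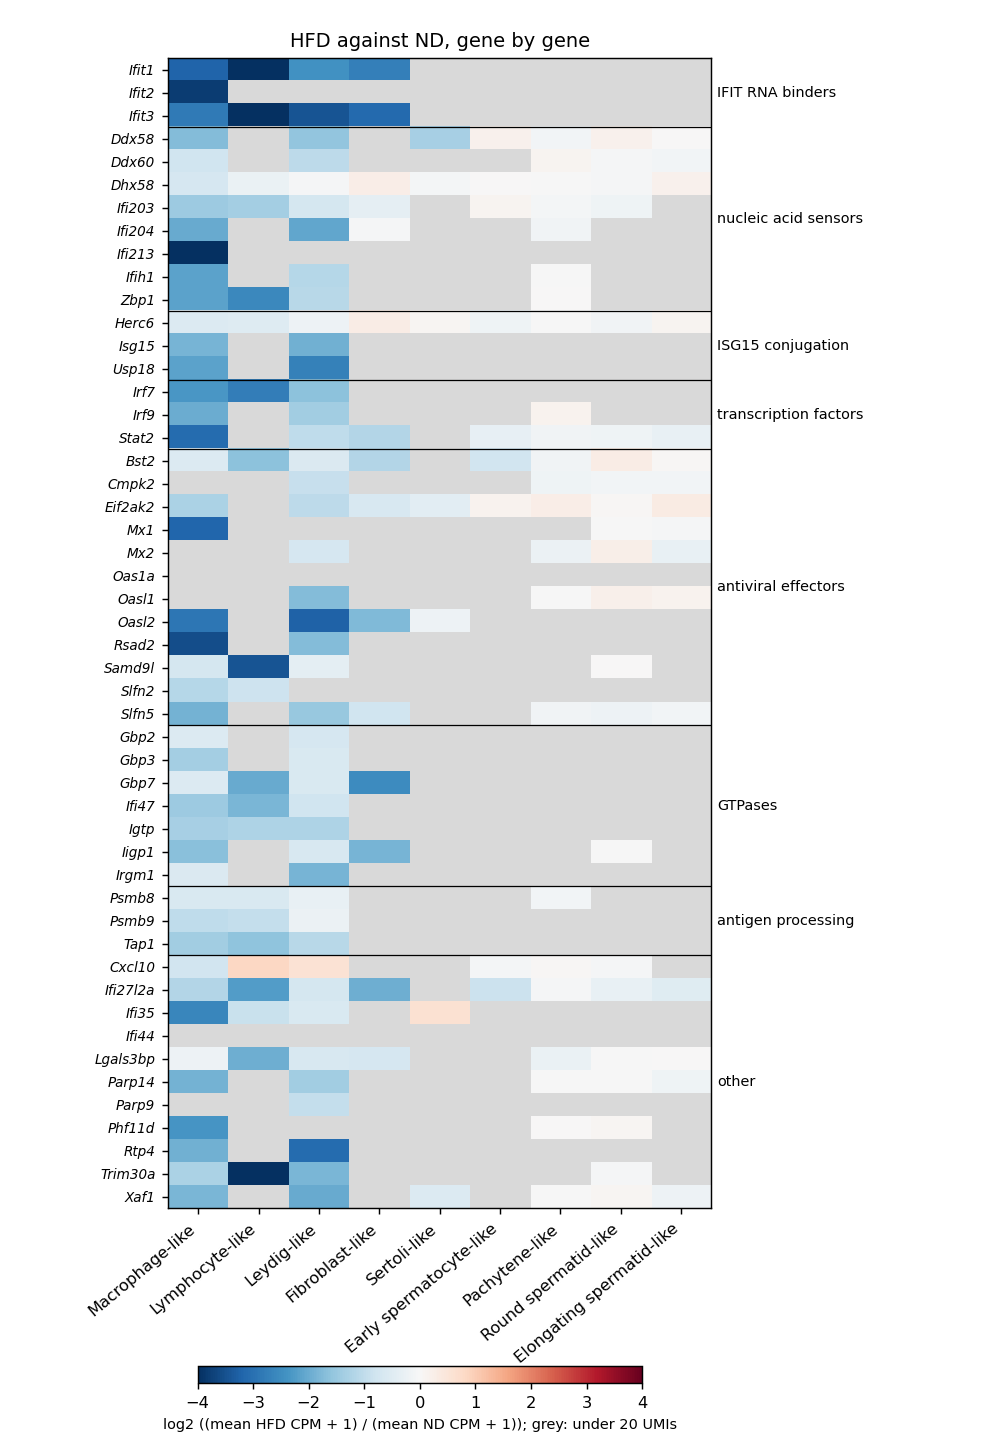
Ratio of the mean HFD level to the mean ND level (log2, 1 CPM added to each) for the 50 genes in rows, grouped by role, and 9 classes in columns, with grey where a gene had under 20 UMIs. Blue (lower in HFD) fills most of the coloured cells of the 4 interstitial columns. There 110 of 123 pairs did not overlap in that direction (19% of pairs over all genes). The Sertoli and germ columns are pale or grey. The added 1 CPM shrinks the ratios of low genes, and 42 of the 50 averaged under 1 CPM in ND germ classes. Pale colour there does not mean equal levels.

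In macrophage-like cells (78, 78, 100 and 103 cells in HFD 1, HFD 2, ND 1 and ND 2), 44 of the 50 genes had at least 20 UMIs, and 42 of them were lower in HFD without overlap, beside 16.6% of all genes with that many UMIs. As a description of genes chosen on this contrast, 24 of 38 fitted were past the threshold as lower (1.24% of all tested genes) and 0 as higher (0.245%), and DESeq2 called 7. The median log2 ratio was -1.73 over the 38 and -0.01 over all fitted genes. Ifit2 had 2 and 2 UMIs under HFD against 31 and 44 under ND (log2 ratio -3.92, SE 0.47). Ifit1 had 2 and 2 UMIs against 22 and 27, and Ifit3 had 17 and 3 against 79 and 92. The HFD libraries differed from each other in Ifit3, yet both lay far below the ND libraries.

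Among the sensors, Ifi213, a member of the DNA-binding PYHIN family, had 0 and 1 UMIs under HFD against 12 and 17 under ND. Its relative Ifi204 had 17 and 14 UMIs against 75 and 77 (-2.06, SE 0.26). All 8 sensors were lower in HFD without overlap, although Dhx58, at 11 and 12 UMIs against 16 and 30, differed least among them. Of the effectors, Rsad2 had 2 and 2 UMIs against 29 and 33 (-3.65, SE 0.49). Mx1, a dynamin-like GTPase that blocks influenza viruses, had 1 and 1 against 12 and 14. Oasl2 had 3 and 5 UMIs against 35 and 42.

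The genes with the highest ND levels in this class were Ifi27l2a, Bst2, Ifit3, Ifi204 and Iigp1. Ifi27l2a, a small hydrophobic protein, had 272 and 297 CPM in HFD and 683 and 596 CPM in ND (-1.21, SE 0.17). Bst2 had 285 and 301 CPM against 499 and 363 CPM (-0.59, SE 0.19), a smaller difference that was not past the threshold. Iigp1, a GTPase active against Toxoplasma, had 88.0 and 83.4 CPM against 335 and 210 CPM. The transcription factors as a group (Irf7, Irf9 and Stat2) summed to 20.9 and 51.0 CPM in HFD and 176 and 227 CPM in ND. Antigen processing genes (Tap1, Psmb8 and Psmb9) summed to 289 and 260 CPM against 459 and 516 CPM. The sums of all 8 roles were separated by diet, and the ratio was largest for the IFIT genes, at 88.0 and 32.4 CPM against 527 and 543 CPM.

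Macrophage class markers (9 of 9 with UMIs) summed to 11761 and 13265 CPM in HFD and 15883 and 14341 CPM in ND. They were lower in HFD. Resident macrophage markers (5 of 5 with UMIs) summed to 6922 and 8083 CPM in HFD and 9389 and 8385 CPM in ND, so they also lay lower in HFD. No NK marker (0 of 4) had a UMI, and of the T markers 1 of 4 had any (Cd3e, Cd3g and Trac were at 0), with 0 to 4 UMIs a library. Plasmacytoid dendritic markers (3 of 3 with UMIs) had 5 and 1 UMIs under HFD against 9 and 12 under ND. Leydig markers (6 of 7 with UMIs, Lhcgr at 0) were higher in HFD, at 134 and 158 CPM against 75.8 and 56.6 CPM. The neutrophil list (1 of 3 with UMIs, S100a8 and S100a9 at 0) was higher too, with 8 and 5 UMIs against 4 and 2. Endothelial and early spermatocyte markers were also higher in HFD, and lymphocyte and round spermatid markers lower. The part of such cells in the result was not tested. Median depth was 3260.5 and 2609 UMIs per cell in HFD and 2244 and 2388 in ND, so the deeper cells had the lower levels.

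Leydig-like cells (322, 277, 408 and 440 cells) gave the most UMIs of the 50 genes among the interstitial classes. Here 43 genes had at least 20 UMIs. In 40 of them HFD was lower without overlap (21.8% of all genes with that many UMIs) and in 1, Cxcl10, higher (26.1%). Of 41 fitted, 16 were past the threshold as lower, which again describes genes chosen for it (0.449% of all tested genes) and 0 as higher (0.0572%), beside 0.506% in either direction. The median log2 ratio of the tested genes was -1.25, against -0.01 over all. That count of 16 was 32 without HFD 2, with 1 more gene higher, when far more genes of the whole table were called as well, and 10 without ND 2. DESeq2 called 0 (9 without independent filtering), and the marker gate gave 0.

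Ifit3 had 5 and 2 UMIs under HFD against 60 and 76 under ND (-3.98, SE 0.41). Oasl2 had 5 and 5 UMIs against 86 and 72 (-3.69, SE 0.37). Rtp4 had 6 and 1 UMIs against 47 and 53 (-3.54, SE 0.45). These 3 differences were the largest among the 41 genes fitted in the class. Usp18, the protease that removes ISG15 and dampens the interferon receptor, had 3 and 4 UMIs against 50 and 34. Ifit1 had 10 and 10 UMIs against 77 and 79, and Ifi204 had 2 and 1 against 16 and 14. Of the signalling genes, Irf7, a factor that amplifies interferon production, had 22 and 15 UMIs against 82 and 70, and Stat2 had 48 and 45 against 103 and 139.

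The genes with the highest Leydig-like levels differed less. Bst2 had 137 and 170 CPM in HFD and 231 and 232 CPM in ND (-0.64, SE 0.18). Lgals3bp, a secreted galectin-binding protein, had 60.4 and 86.3 CPM against 112 and 120 CPM, and Iigp1 had 55.2 and 82.5 CPM against 113 and 101 CPM. Samd9l, an antiviral growth suppressor, had 35.9 and 50.1 CPM against 57.8 and 56.7 CPM, and Gbp7, a guanylate-binding GTPase, had 31.6 and 42.5 CPM against 60.4 and 52.9 CPM. For these 5 genes the diets did not overlap, but none was past the threshold.

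Cxcl10, a chemokine that attracts activated T cells, was the exception. It had 165 and 112 UMIs under HFD against 157 and 69 under ND, which overlap. Scaled to CPM the libraries were barely apart, at 77.8 and 71.1 CPM against 69.7 and 29.7 CPM, and the log2 ratio of 0.54 (SE 0.28) was not past the threshold. Dhx58 overlapped between the diets, with 98 and 59 UMIs against 108 and 89, and so in CPM did Psmb8, a subunit of the immunoproteasome, at 20.8 and 29.8 CPM against 32.4 and 29.7 CPM. Summed Leydig markers were 12398 and 15153 CPM in HFD and 20228 and 16402 CPM in ND, also lower in HFD, and macrophage markers (9 of 9 with UMIs) overlapped at 166 and 289 CPM against 234 and 199 CPM. Fibroblast markers (9 of 9) were lower in HFD at 93.9 and 123 CPM against 166 and 192 CPM, as were those of Sertoli cells and spermatogonia. Pachytene markers (11 of 11) were higher in HFD, at 2083 and 1382 CPM against 1016 and 1160 CPM, as were round spermatid markers. The part of these marker levels in the result was not tested.

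**Figure D3:**
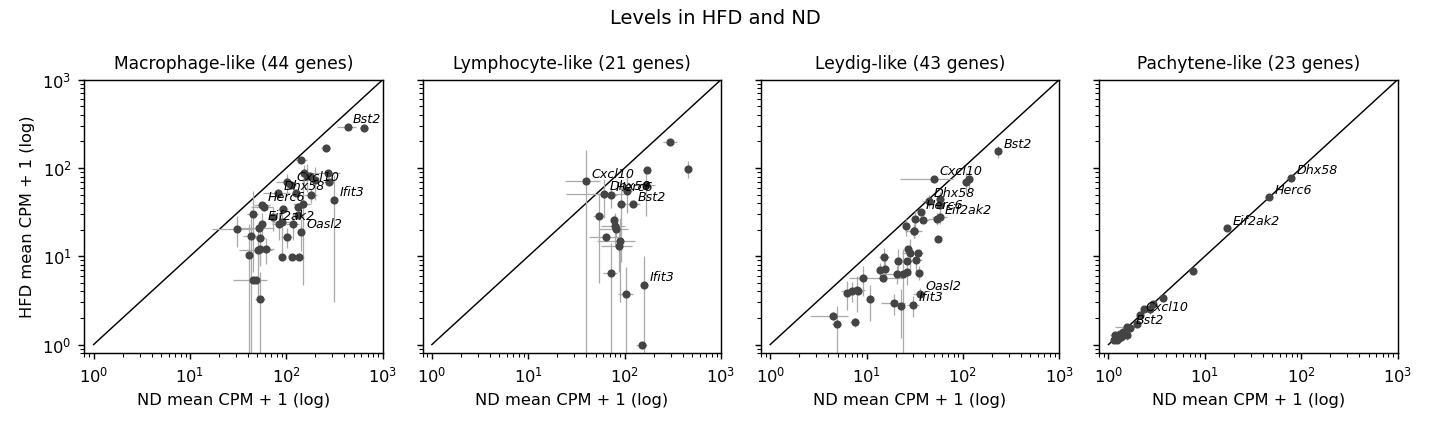
Mean HFD level against mean ND level of each gene with at least 20 UMIs in 4 classes (CPM plus 1, log axes, bars are the SD of 2 libraries, cut at the lower axis limit), with the line of equality. Macrophage-like, lymphocyte-like and Leydig-like genes lie mostly below the line, Cxcl10 lies above it in Leydig-like and lymphocyte-like cells (in the latter 1 cell held 15 of the 18 UMIs in HFD 2), and in pachytene-like cells Dhx58, Herc6 and Eif2ak2 lie on or near it.

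Lymphocyte-like cells (68, 62, 77 and 71 cells) were few and shallow, at medians of 1674 to 2413.5 UMIs per cell. Of 21 genes with at least 20 UMIs, 19 were lower in HFD without overlap (17.6% of all such genes) and 0 higher. Of 11 fitted, 6 were past the threshold as lower (1.03% of all tested genes) with a median log2 ratio of -1.61, from which nothing is read. The count of 6 was 3 without ND 1, 4 without each of the other libraries or with doublets kept, 2 in DESeq2 and in limma, and 9 with no count filter. Ifit1 had 0 and 0 UMIs under HFD against 19 and 24 under ND, and was at least 15.95-fold lower when the HFD libraries together are set to 3 UMIs. Ifit3 had 0 and 1 UMIs against 23 and 22, a ratio of ND over HFD of 50.1 (95% counting interval 8.54 to 2022). Trim30a, a regulator of inflammatory signalling, had 1 and 0 against 16 and 13, a ratio of 32.3 (5.35 to 1318). The 3 genes were nearly absent from the HFD libraries and reached 20 UMIs only through the ND libraries, which fixes their direction. The intervals pool the libraries of a diet, cover counting error only and are no test of genes chosen on this contrast.

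The most abundant genes were Ifi27l2a, Psmb8, Slfn2, Ifi203 and Ifit3. Ifi27l2a had 15 and 15 UMIs under HFD against 67 and 63 under ND (-2.29, SE 0.27). Ifi203, a PYHIN protein, had 7 and 12 UMIs against 27 and 20 (-1.48, SE 0.38), and Bst2 had 7 and 5 against 19 and 15. Psmb8, at 203 and 186 CPM against 331 and 261 CPM, and Slfn2, a schlafen protein needed for T cell quiescence, at 93.3 and 96.7 CPM against 180 and 158 CPM, were lower without being past the threshold. Tap1, a subunit of the peptide transporter, had 5 and 3 UMIs against 11 and 11. Cxcl10 overlapped, with 1 and 18 UMIs under HFD against 7 and 4 under ND, and 15 of the 18 came from 1 cell.

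Lymphocyte class markers (12 of 12 with UMIs) overlapped, at 1663 and 2068 CPM in HFD and 2337 and 2063 CPM in ND. The T cell markers (4 of 4 with UMIs) summed to 713 and 952 CPM in HFD and 1079 and 1052 CPM in ND, whereas the NK and B lists overlapped. The monocyte list (Ly6c2, Ccr2 and Plac8, 3 of 3 with UMIs) summed to 269 and 357 CPM in HFD and 626 and 729 CPM in ND, and so moved with the interferon-induced genes. Its role in the difference was not tested. Resident macrophage markers had 0 or 1 UMI in every library, and the neutrophil list was at 0. The wider macrophage list (5 of 9 with UMIs, Adgre1, C1qc, Cd68 and Mrc1 at 0) was higher in HFD, with 6 and 9 UMIs against 1 and 4.

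In fibroblast-like cells (70, 64, 85 and 88 cells), 15 genes had at least 20 UMIs. Of these, 9 were lower in HFD without overlap (16.6% of all such genes) and 0 higher, and 0 of the 4 tested were past the threshold, like 0% of all genes. Ifit3 had 3 and 0 UMIs under HFD against 12 and 20 under ND (-3.03, SE 0.79). Iigp1 had 4 and 5 UMIs against 24 and 15, and Bst2 had 5 and 9 against 16 and 25. Ifit1 had 2 and 2 UMIs against 9 and 28, apart from HFD but with ND libraries that differ. Ifi203 had 22 and 6 UMIs against 17 and 25 and overlapped. Herc6 overlapped at 41.5 and 65.5 CPM in HFD and 45.2 and 41.2 CPM in ND. Macrophage markers (6 of 9 with UMIs, Adgre1, Csf1r and Cd68 at 0) had 1 and 1 UMIs under HFD against 3 and 5 under ND, and endothelial markers (7 of 7) overlapped, with 17 UMIs in ND 1 and 3 to 5 in the other libraries. Spermatogonia markers (7 of 10 with UMIs, Stra8, Dmrt1 and Crabp1 at 0) were lower in HFD, at 17.8 and 21.8 CPM against 51.6 and 41.2 CPM. Early spermatocyte markers (11 of 11) were lower too, at 622 and 669 CPM against 768 and 746 CPM. Leydig markers (7 of 7) were higher, at 148 and 131 CPM against 116 and 128 CPM. The part of these markers in the result was not tested.

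In Sertoli-like cells (251, 258, 314 and 299 cells), 7 genes had at least 20 UMIs. HFD was lower without overlap in 3 of them (19.5% of all such genes) and higher in 2 (13.4%), and 0 of 3 tested were past the threshold, beside 0.0203% of all genes in either direction (0.0102% lower and 0.0102% higher). Dhx58 had 34.4 and 36.5 CPM in HFD and 32.5 and 42.8 CPM in ND. Herc6 had 29.8 and 32.6 CPM against 29.1 and 29.4 CPM, and Eif2ak2 had 13.8 and 10.3 CPM against 15.6 and 17.4 CPM. Oasl2 was low and overlapping at 3.82 and 6.35 CPM against 5.42 and 6.68 CPM. Xaf1, a promoter of apoptosis, had 4.59 and 3.18 CPM against 7.45 and 4.68 CPM. Sertoli markers (9 of 9) summed to 2636 and 2225 CPM in HFD and 2388 and 2567 CPM in ND. Elongating spermatid markers (10 of 10) were far above them, at 87072 and 95954 CPM against 101942 and 77957 CPM. The part of spermatid RNA in the levels of this class was not tested.

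Dhx58, Herc6 and Eif2ak2 had the highest germ-cell levels of the list. In pachytene-like spermatocytes, Dhx58 had 77.6 and 75.4 CPM in HFD and 76.6 and 78.3 CPM in ND (log2 ratio 0.01, SE 0.04). Herc6 had 46.1 and 44.6 CPM against 42.7 and 48.3 CPM (0.02, SE 0.05). Eif2ak2 had 1110 and 1056 UMIs against 623 and 659 from fewer cells in ND, at means of 19.7 and 16.1 CPM (0.31, SE 0.06), higher in HFD without overlap, and was the 1 gene of 21 tested past the threshold there, beside 2.14% of all genes as higher and 1.54% as lower (3.68% in all). No call remained when any 1 library was left out. Ddx58 had 5.86 and 5.89 CPM against 6.11 and 6.79 CPM, and Stat2 had 2.20 and 2.47 CPM against 2.53 and 2.89 CPM.

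In round-spermatid-like cells 0 of 19 tested genes were past the threshold (0.186% of all genes lower, 0.263% higher). Dhx58 had 35.2 and 33.0 CPM in HFD and 34.6 and 36.7 CPM in ND. Herc6 had 27.0 and 25.6 CPM against 26.7 and 30.9 CPM, and Eif2ak2 had 8.65 and 9.73 CPM against 8.48 and 9.38 CPM. All 3 overlapped. Slfn5 had 5.63 and 5.50 CPM against 6.66 and 6.55 CPM, and Mx1 had 2.52 and 3.01 CPM against 2.37 and 3.18 CPM. Bst2 was slightly higher in HFD, at 1.57 and 1.29 CPM against 1.13 and 0.789 CPM, the opposite of its order in the interstitium.

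Early-spermatocyte-like cells had Dhx58 at 27.0 and 27.2 CPM in HFD and 25.0 and 28.6 CPM in ND, with 0 of 6 tested genes past the threshold (1.49% of all genes, 0.846% lower and 0.642% higher). Stat2 had 4.42 and 5.04 CPM against 6.06 and 6.32 CPM, and Bst2 had 4 and 6 UMIs against 14 and 15. In elongating-spermatid-like cells 0 of 8 were past it (7.56% of all genes, 3.9% lower and 3.66% higher), and Dhx58 had 18.2 and 17.1 CPM against 16.8 and 14.3 CPM. Ifi27l2a, at 4 and 4 UMIs against 14 and 11, was lower in HFD there, and at 5 and 7 against 24 and 14 in round-spermatid-like cells. These few UMIs were partly from single cells. The highest elongating-spermatid-like cell held 4 of the 14 in ND 1 and 5 of the 11 in ND 2. The highest round-spermatid-like cell held 7 of the 24 in ND 1 and 2 of the 14 in ND 2.

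The share of cells with a UMI of 9 core genes (Ifit1, Ifit2, Ifit3, Isg15, Rsad2, Oasl1, Oasl2, Irf7 and Usp18) was counted in each class as a description, since these genes belong to the list chosen on the diet contrast. In macrophage-like cells it was 35.9% in HFD 1 (exact Clopper-Pearson 95% interval 25.3 to 47.6) and 21.8% in HFD 2 (13.2 to 32.6). ND 1 had 82.0% (73.1 to 89.0) and ND 2 had 82.5% (73.8 to 89.3). Thinned to 1000 UMIs per cell, with no cell left out, it was 12.8% and 11.5% against 61.0% and 64.1%. In Leydig-like cells it was 18.3% and 14.8% against 53.9% and 53.6%, or 2.17% and 3.25% against 13.2% and 18.4% after thinning. In lymphocyte-like cells it was 5.88% and 4.84% against 49.4% and 53.5%, and in fibroblast-like cells 12.9% and 10.9% against 37.6% and 40.9%. The intervals cover counting error only.

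No cell of these classes held more than 12 core UMIs. At least 3 of the 9 genes were found in 39 and 45 macrophage-like cells of ND 1 and ND 2 and in 1 cell of each HFD library. Sertoli-like cells, at median depths of 2407.5 to 3406 UMIs, had shares of 3.82% to 5.35% in all 4 libraries. After thinning these fell between 0.669% and 1.16%, and the germ classes stood at 0% to 0.449%. The level of free RNA in the droplets was not estimated, and its part in these shares was not tested.

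**Figure D4:**
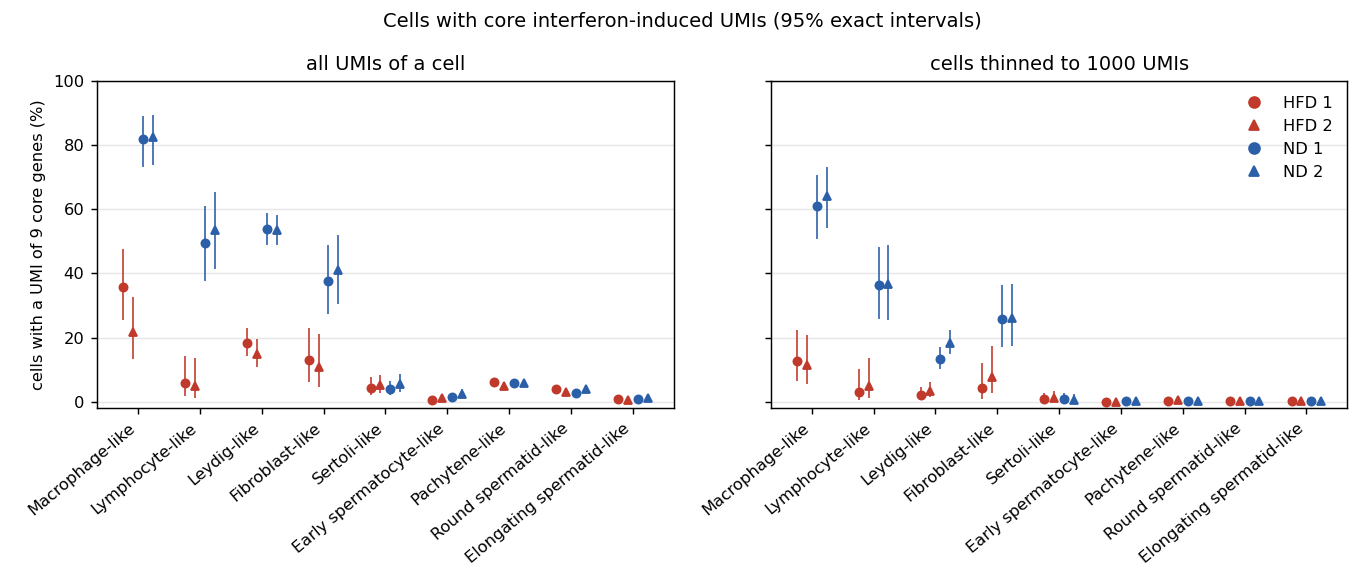
Share of cells with at least 1 UMI of 9 core genes, per class and library, before (left) and after (right) thinning to 1000 UMIs per cell, with exact 95% intervals that cover counting error only. ND points (blue) stand above HFD points (red) in the 4 interstitial classes, for example 82.0% and 82.5% against 35.9% and 21.8% in macrophage-like cells, and the Sertoli and germ classes lie near the bottom in all libraries.

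Basal levels were compared between classes of the ND libraries. Genes high in ND were more likely to be chosen, so these values are not independent of the choice. The mean of the 5 somatic classes was compared with that of the 4 germ classes (edgeR quasi-likelihood test with library as block, Benjamini-Hochberg adjustment over 17390 genes). Of 48 genes tested, 32 were higher in somatic classes, 1 was lower and 15 were not called, beside 13% of all tested genes higher and 47.5% lower. Of the 15, 14 had a class without any UMI, which leaves the averaged contrast poorly determined (3 of the 32 genes called higher also had such a class), and the other was Herc6. With the classes summed before fitting, an alternative chosen after seeing the data, 47 of 49 were higher and 0 lower. In the HFD libraries 20 of 45 were higher and 1 lower. The share of all genes is not set beside the counts for summed classes and for HFD libraries. The DESeq2 fit called 48 of 48 higher, but it placed the median of all genes 0.85 higher on the log2 scale and called 37.8% of all genes higher and 22.9% lower.

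Ifit1 averaged 73.6 CPM in somatic and 0.119 CPM in germ classes, a log2 difference of 7.37 (SE 0.77; edgeR adjusted p 8.21e-21). Gbp2, Oasl2, Irf7 and Gbp7 followed with log2 differences of 7.32, 7.28, 7.21 and 7.19 (SE 0.79, 0.58, 0.93 and 0.75; edgeR adjusted p at most 4.36e-14). Gbp2 had no UMI in round-spermatid-like and Irf7 none in early-spermatocyte-like cells, so these values are no exact folds. With the classes summed, Ifit1, Gbp2, Oasl2, Irf7 and Gbp7 had 8.56, 8.95, 8.42, 7.72 and 8.55, in another order. In these libraries 42 of the 50 genes, these 5 among them, averaged under 1 CPM in germ classes.

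The remaining 8 genes, at 1 CPM or more in germ classes, were Oasl1, Bst2, Stat2, Ddx58, Dhx58, Herc6, Eif2ak2 and Slfn5. Dhx58 averaged 52.9 CPM in somatic and 38.9 CPM in germ classes, a log2 difference of -0.26 (SE 0.12; edgeR adjusted p 0.0376). The fitted sign is opposite to that of the plain means, in a fit whose median over all genes was -0.71. It turned to 0.36 in the DESeq2 fit, and the summed classes gave -0.14 (SE 0.09; edgeR adjusted p 0.17). Herc6 did not differ beyond its error, at 46.8 and 25.4 CPM (0.11, SE 0.13; edgeR adjusted p 0.483). Eif2ak2 averaged 42.9 and 8.84 CPM (1.41, SE 0.18; edgeR adjusted p 4.16e-14). In germ cells each of the 3 was highest in pachytene-like spermatocytes, at 77.5, 45.5 and 16.1 CPM. Pachytene markers (11 of 11) had 4771 and 4763 CPM there in ND. In ND macrophage-like cells they had 2475 and 2855 CPM, in lymphocyte-like 3250 and 3308 CPM and in Leydig-like 1016 and 1160 CPM. The part of germ-cell RNA in the somatic levels was not tested. Dhx58, Herc6 and Eif2ak2 overlap genes on the opposite strand, 3 of 18 such genes among the 50, and a count of reads without regard to strand could mix them.

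**Figure D5:**
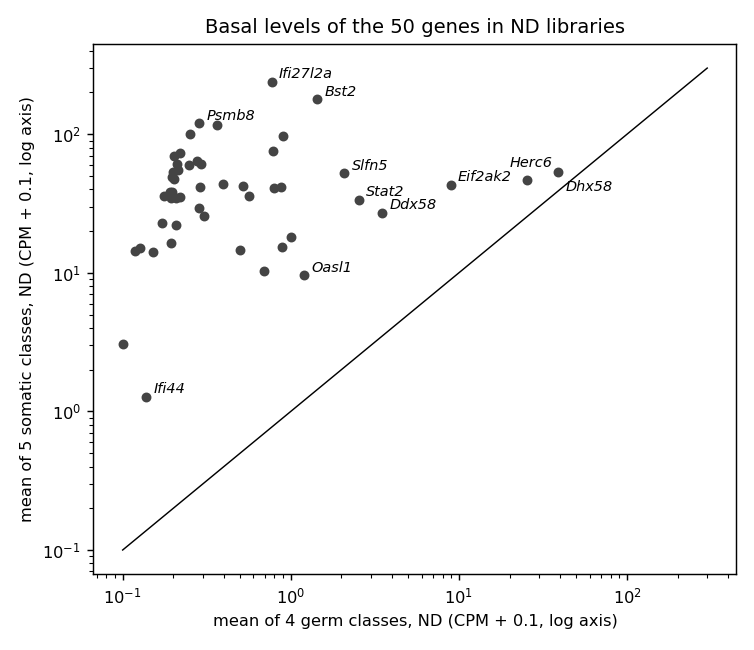
Basal level of each of the 50 genes in the ND libraries, as the mean over 5 somatic classes against the mean over 4 germ classes (CPM plus 0.1, log axes), with the line of equality. Most genes stand far above the line, 42 of them under 1 CPM in germ classes, whereas Dhx58 and Herc6 lie close to it.

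Among somatic classes, the immune classes (macrophage-like and lymphocyte-like) were compared with Leydig-like, Sertoli-like and fibroblast-like cells in the same fit. Of 48 genes tested, 37 were higher in immune classes and 0 lower, beside 4.84% of all genes higher and 10.9% lower. Slfn2 averaged 172 CPM in immune and 0.580 CPM in other somatic classes, a log2 difference of 10.64 (SE 0.61; edgeR adjusted p 5.09e-66). Ifi213, Mx1, Zbp1 and Ifi47 followed with 8.79, 7.51, 6.52 and 5.83 (SE 1.45, 0.88, 0.55 and 0.58; edgeR adjusted p at most 4.52e-08). Each of the 5 had no UMI in Sertoli-like cells, fibroblast-like cells or both in ND, and with the classes summed the log2 differences were 7.14, 6.84, 5.85, 5.22 and 4.12. Zbp1 encodes a sensor of left-handed nucleic acid that triggers cell death, and Ifi47 a GTPase. In the HFD libraries 17 of 45 were higher, a count without the share of all genes beside it. The DESeq2 fit called 39 higher, with the median of all genes 0.30 higher on the log2 scale. With only ND 1 or only ND 2, where the spread had to come from the classes themselves, 0 genes of the table were called, and 12 or 13 of the 50 had an unadjusted p under 0.05.

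The class with the highest ND level was macrophage-like for 37 genes, lymphocyte-like for 8, Leydig-like for 4 and fibroblast-like for 1, Ifi44, which rests there on 1 UMI in ND 1. The 4 genes led by Leydig-like cells were Stat2, Irgm1, Mx2 and Eif2ak2. Of these, Eif2ak2 had 56.5 CPM in Leydig-like and 54.6 CPM in macrophage-like cells. Order between classes was not tested gene by gene. Ifi44 had 1 and 0 UMIs under HFD against 6 and 6 under ND in Leydig-like cells and no UMI in macrophage-like cells. Oas1a, an oligoadenylate synthetase, stayed under 20 UMIs in every class.

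Interferons, their receptors and the signalling genes that act before the 50 genes were listed separately (39 genes). Interferon genes were scarce, since Ifnb1 had 0 and 0 UMIs under HFD against 2 and 7 under ND over all cells, Ifna2 1 UMI in each diet and Ifna4 none in any library. Ifng, the interferon of T and NK cells, had 34 and 16 UMIs against 32 and 40 (log2 ratio -0.59; edgeR adjusted p 0.155). The receptor genes Ifnar1 (609 and 683 against 597 and 559 UMIs) and Ifnar2 (135 and 142 against 142 and 206 UMIs) did not pass the threshold. Of 31 upstream genes tested in all cells, 10 fell and 3 rose in HFD, beside 19% and 15.5% of all genes. Tlr3 (-1.03, SE 0.35; edgeR adjusted p 0.0346), Tlr9 (-0.56, SE 0.19) and Irf8 (-0.38, SE 0.11) fell most. Irf3 rose by 0.26, Myd88 by 0.22 and Tyk2 by 0.20 on the log2 scale.

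A second list held 88 further interferon targets. Like the upstream list, it was written with earlier results of these data known. The p-values of its genes are therefore no independent check of the diet difference. In Leydig-like cells 5 of 45 tested fell (0.449% of all genes) and 0 rose. With the genes of the first list counted in, the calls went from 6 to 1 in DESeq2, 0 with the marker gate, 3 without ND 1 and 30 without HFD 2. Ifit3b, a near copy of Ifit3 whose reads may be shared with it, had 2 and 6 UMIs under HFD against 31 and 43 under ND (-2.90, SE 0.49; edgeR adjusted p 0.00549). Irgm2 had 12 and 3 UMIs against 45 and 35 (-2.15), and Trim34a 11 and 5 against 35 and 38 (-1.92). In macrophage-like cells 4 of 32 fell (1.24% of all genes) and 0 rose. With the first list, the calls there went from 5 to 1 in DESeq2, 2 with the marker gate, 3 without HFD 1 and 12 with doublets kept. Ifitm3, a membrane protein that blocks virus entry, had 25 and 24 UMIs against 193 and 241 (-2.91, SE 0.19; edgeR adjusted p 1.02e-10). Ifit3b and Ifi211 fell there by 2.35 and 2.05 on the log2 scale.

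In lymphocyte-like cells 3 of 17 further targets fell (1.03% of all genes). That count was 0 in DESeq2 and 1 with no count filter, with the 10% mitochondrial limit, with doublets kept, with the 50 genes used in clustering and without HFD 1, HFD 2 or ND 1. Ly6a, a surface protein of T cells, had 14 and 10 UMIs under HFD against 41 and 35 under ND (-1.84, SE 0.32; edgeR adjusted p 4.74e-06), and Epsti1 and Ly6e fell by 1.15 and 0.88 on the log2 scale. In early-spermatocyte-like cells 3 of 26 fell (0.846% of all genes), but 0 in DESeq2, at Leiden resolution 2, with the 10% mitochondrial limit or with the 50 genes used in clustering, and 1 without HFD 2 or with doublets kept. Of the 3, the MHC class I gene H2-K1 had 78.7 and 69.7 CPM against 92.7 and 88.6 CPM (-0.28, SE 0.07; edgeR adjusted p 0.0274). H2-D1 fell by 0.66 (log2), and Ccl5, a chemokine of T cells, fell by 2.79 and had 1 and 5 UMIs against 13 and 34. The log2 ratio of H2-K1 was -0.17 in pachytene-like cells, and that of the nuclease gene Isg20 was -0.23 in elongating-spermatid-like cells, both past the threshold in edgeR. H2-K1 lost that call in DESeq2, with no count filter, with doublets kept and when any 1 of the 4 libraries was left out, and Isg20 in DESeq2, with doublets kept, without HFD 2 and without ND 1. Over all cells 47 of 78 fell and 3 rose (19% and 15.5% of all genes), led by Oas3 (1 and 2 UMIs in HFD, 16 and 16 in ND), Ifit3b (5 and 15, 59 and 80) and Slfn1 (3 and 4, 21 and 23). Cxcl9, Pnpt1 and Epsti1 rose by 0.46, 0.24 and 0.12 on the log2 scale.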

How the data were processed

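The deposited files hold UMI counts per gene and cell barcode for each of the 4 libraries, made by the authors on mm10 per the submitters' processing notes. The aligner's settings, including strand, are not given in the sources used here. Barcodes under 200 genes or over 20% mitochondrial counts were left out, and doublets were removed with Scrublet (expected rate 0.1), 388 to 888 per library. Clustering used scanpy 1.11.5 (2000 variable genes without the 50 genes, 30 components, 15 neighbours, Leiden resolution 1), and clusters were named from marker lists. Clusters that stayed unnamed held 37.3% to 43.5% of the cells of a library and enter the whole-testis sums only. UMIs summed per library and class were fitted across all genes with the quasi-likelihood test of edgeR 4.0.16 (filterByExpr, TMM, Benjamini-Hochberg threshold 0.05). The ND fit had library as a block. The 50 genes and all lists were chosen with earlier results of these data known. Genes given in full were, per class, up to 6 with the largest fitted log2 ratio among those with at least 20 UMIs and no overlap, up to 5 with the highest ND level, up to 5 per direction in each ND contrast and up to 3 per direction of the other lists. Other genes named, such as Dhx58, Herc6, Eif2ak2 and those that overlapped, were chosen after their values were seen. Alternatives were DESeq2 1.42.0, limma 3.58.1 on log2(CPM + 1), no filter, leaving out each library, a replicate block, Leiden resolution 2, a 10% mitochondrial limit, doublets kept, clustering with the 50 genes and a marker gate. The fits were tested on simulated data. Among 100 genes changed by 1 (log2), the diet fit recovered 52 in macrophage-, 49 in lymphocyte-, 62 in Leydig- and 88 in pachytene-like cells. Among 100 changed by 2, it recovered 84, 94, 91 and 95, with 7, 4, 10 and 8 false calls per class. Among 200 genes raised by 2 (log2) in somatic classes, the ND fit recovered 148, and it made 27 false calls. That simulation drew every class from 1 pooled profile with a fixed spread. It did not model genes confined to some classes, so its figures do not cover genes without UMIs in a class. Counting intervals and floors cover counting error only. In the diet fits the p-values measure the spread between libraries, which may be technical. In the ND fit they measure the scatter of class sums left after class and library differences are taken out. They say nothing there about the spread between libraries or animals. The result of 1 upstream gene is not reported here.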

Additional observations from a re-analysis of the deposited data

Results flagged for a closer look

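For 9 genes with a fitted ratio in both classes, both HFD libraries lay above both ND libraries in 1 class and below them in another, among genes with at least 20 UMIs in the class. None of these differences was tested, and the values are differences between the fitted log2 ratios of HFD over ND. Irf9 differed by 2.31 between pachytene-like (0.75) and Leydig-like cells (-1.56). Bst2 differed by 2.23 between round-spermatid-like (0.56) and lymphocyte-like cells (-1.67), and Ddx58 by 2.10 between round-spermatid-like (0.32) and macrophage-like cells (-1.78). These are the widest gaps, and the Irf9 ratio in pachytene-like cells rests on 15 and 15 UMIs against 10 and 3. Eif2ak2 differed by 1.67 between elongating-spermatid-like (0.34) and macrophage-like cells (-1.33), and Ddx60 by 1.51 between pachytene-like (0.20) and Leydig-like cells (-1.30). Mx2 differed by 1.41 between round-spermatid-like (0.66) and Leydig-like cells (-0.75). Cxcl10 differed by 1.35 between Leydig-like (0.54) and macrophage-like cells (-0.81), the 1 case within the interstitium. Dhx58 differed by 0.89 between elongating-spermatid-like (0.13) and macrophage-like cells (-0.76), and Herc6 by 0.73 between Sertoli-like (0.10) and macrophage-like cells (-0.63). Opposite orders in some pair of classes were found for 10 of the 45 genes (22.2%) with 20 UMIs in at least 2 classes and for 35.8% of all such genes, whether fitted or not.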

How the results depend on the processing

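Counts of genes past the threshold depended on the tool and on single libraries. Under most alternatives, here and above, they are given without the share of all genes called in that setting. A changed count therefore does not tell whether the listed genes or the whole table moved. For the 50 genes, DESeq2 called 26 in all cells (edgeR 40), 0 in Leydig-like (16), 7 in macrophage-like (24) and 2 in lymphocyte-like cells (6), where limma also called 2. Without independent filtering, chosen after seeing the data, DESeq2 called 9, 7 and 2 in these classes and 0 in pachytene-like cells (1). Leydig-like cells gave 25 with the 10% mitochondrial limit, 29 with doublets kept and 0 with the marker gate. Without a count filter 2 were called in fibroblast-like (0) and 0 in pachytene-like cells, and 1 in fibroblast-like cells with the 50 genes used in clustering. Pachytene-like cells gave 2 at Leiden resolution 2 and 2 with doublets kept, and the round- and elongating-spermatid-like classes gave 1 each with doublets kept. Leaving out 1 library gave 10 to 33 in Leydig-like, 16 to 19 in macrophage-like, 3 to 4 in lymphocyte-like, 0 to 1 in fibroblast-like, 0 in pachytene-like, 0 to 2 in round-spermatid-like and 37 to 41 in all cells. In the ND contrasts, HFD libraries in place of ND gave 21 (33) and 17 (37). Leaving out 1 ND library gave 37 and 0. Dhx58 reversed to 0.36 in DESeq2.

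For the other interferon lists together, DESeq2 called 30 in all cells (63), 1 in Leydig-like (6), 1 in macrophage-like (5), 0 in lymphocyte-like (3), 0 in early-spermatocyte-like (3), 0 in pachytene-like (1) and 1 in elongating-spermatid-like cells (2). Without independent filtering it called 36, 1 in macrophage-like and 0 in the last 4. With no filter 14, 10, 1 and 0 were called in Leydig-, macrophage-, lymphocyte- and pachytene-like cells. The 10% limit gave 17 in Leydig-like, 1 in lymphocyte-like, 0 in early-spermatocyte-like and 1 in round-spermatid-like cells (0). With doublets kept the counts were 21, 12, 1, 1, 3 and 0 in Leydig-, macrophage-, lymphocyte-, early-spermatocyte-, pachytene- and elongating-spermatid-like cells. With the 50 genes used in clustering 10, 1 and 0 were called in Leydig-, lymphocyte- and early-spermatocyte-like cells. Leiden resolution 2 gave 0 in early-spermatocyte-like and 2 in pachytene-like cells, and the marker gate 0 in Leydig-like and 2 in macrophage-like cells. Leaving out 1 library gave 46 to 60 in all cells, 3 to 30 in Leydig-like, 3 to 6 in macrophage-like, 1 to 3 in lymphocyte-like, 1 to 2 in early-spermatocyte-like, 0 in pachytene-like, 0 to 3 in round-spermatid-like and 0 to 2 in elongating-spermatid-like cells. The causes were not tested.

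The labels number the libraries alike in both diets, with nothing to say that equal numbers share an animal or day, and replicate differences correlated at -0.158 to 0.079 over genes. With the replicate block, 42 of the 50 genes were called in all cells, 19 in Leydig-like, 22 in macrophage-like and 5 in lymphocyte-like cells, and for the other lists 2 in pachytene-like and 3 in round-spermatid-like cells. Without the block the ND contrasts gave 32 and 37.

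Thinning to 1000 UMIs moved the ND minus HFD difference in core-positive cells from 37.2 to 13.1 percentage points in Leydig-like, 46.1 to 32.6 in lymphocyte-like, 27.4 to 19.96 in fibroblast-like and 1.10 to 0.169 in early-spermatocyte-like cells. Of 1565 values of named genes under an alternative, 1310 kept direction and call or stayed within the replicate spread. Lymphocyte-like, fibroblast-like and Sertoli-like depth left few genes testable.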

Other observations

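A small cluster of 30 cells leaned to endothelial markers and stayed unnamed, so it entered no comparison by class. It held 6, 8, 9 and 7 cells in HFD 1, HFD 2, ND 1 and ND 2. The 9 core genes had 7 and 12 UMIs there in HFD and 14 and 21 in ND, or 228 and 319 CPM against 988 and 1499 CPM. Spermatogonia-like cells, with 45 to 66 cells a library, had core levels of 32.9 and 22.5 CPM in HFD and 28.8 and 43.0 CPM in ND, which overlapped. Over all unnamed cells the core genes stood at 2.62 and 2.73 CPM in HFD and 4.33 and 4.37 CPM in ND.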
